A study of Mus musculus with 14 samples.

Results

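The 7 genes described here are the fibril-associated collagens Col14a1 and Col12a1, the tendon cell genes Tnmd, Scx and Mkx, and the matricellular genes Thbs4 and Postn, in RNA of mouse tibia. They were taken by symbol from a count table of 55291 symbols, and all 7 were among the 21761 genes abundant enough to be tested. They were chosen because Col14a1 separated ovariectomized from sham mice in an earlier reading of the same counts, where it was the 1 gene that DESeq2 called in the comparison of OVX-PBS with sham (0.0046% of the genes it tested). The difference of each gene between OVX-PBS and sham is therefore given as a description with no test.

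All mice were wild-type female C57Bl/6, and no label gives their age. Ovariectomized (OVX) mice, which lack ovarian sex steroids, made up 4 groups: OVX-ZA mice (n = 3) received zoledronic acid, OVX-HA mice (n = 3) received hippuric acid, OVX-PPA mice (n = 2) received 3-(3-hydroxyphenyl)propionic acid, and OVX-PBS mice (n = 3) received PBS. The sham group (n = 3) had sham surgery, and each n counts libraries. Treatment began 2 to 4 days after surgery and lasted 8 weeks, with doses that no label states. Zoledronic acid is a bisphosphonate that blocks bone resorption by osteoclasts, and hippuric acid and 3-(3-hydroxyphenyl)propionic acid are small phenolic or benzoic acid metabolites that the study tested against bone loss. No label ties a library to its own mouse, so every p-value measures the spread between these libraries, which may be technical.

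Tendon, ligament, fascia and the periosteum around bone are built of type I collagen fibrils made by fibroblasts. Collagens XII and XIV are FACIT collagens: they do not form fibrils but sit on the surface of them and tie them to neighbouring molecules. Scleraxis (Scx) and Mohawk (Mkx) are transcription factors of tendon cells, and tenomodulin (Tnmd) is a membrane protein of mature tendon cells whose gene depends on Scx in mouse. Thrombospondin 4 (Thbs4) is a secreted glycoprotein of tendon and muscle attachments, and periostin (Postn) is a secreted protein of periosteum and other collagen-rich tissue under load. In RNA from a whole tissue, fewer cells of a type and less RNA per cell cannot be told apart.

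The sequences just upstream of Tnmd, Postn and Thbs4 are shown because these are the 3 of the 7 genes for which RefSeq promoter entries (build GRCm38.p6) were matched; they show the letters before the start of genes whose levels are given below. Each run reads 5′ to 3′ on the strand of the gene and ends at or before the annotated start of the gene. Capitals mark an E-box (CANNTG, the kind of site that Scx and other helix-loop-helix factors bind) or a TATA box (TATAAA), searched on both strands of the 250 bases before the RefSeq start.
Tnmd, chrX:133850758-133850979, plus strand: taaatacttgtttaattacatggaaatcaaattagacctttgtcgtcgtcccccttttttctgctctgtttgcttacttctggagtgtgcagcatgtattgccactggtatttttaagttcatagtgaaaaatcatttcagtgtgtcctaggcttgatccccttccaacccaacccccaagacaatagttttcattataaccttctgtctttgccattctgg
Postn, chr3:54360857-54361106, plus strand: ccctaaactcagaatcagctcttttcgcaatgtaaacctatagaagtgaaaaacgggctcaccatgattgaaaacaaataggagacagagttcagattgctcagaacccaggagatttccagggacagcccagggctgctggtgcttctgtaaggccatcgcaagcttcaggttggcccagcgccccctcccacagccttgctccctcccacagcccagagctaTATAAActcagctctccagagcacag
Thbs4, chr13:92794819-92795068, minus strand: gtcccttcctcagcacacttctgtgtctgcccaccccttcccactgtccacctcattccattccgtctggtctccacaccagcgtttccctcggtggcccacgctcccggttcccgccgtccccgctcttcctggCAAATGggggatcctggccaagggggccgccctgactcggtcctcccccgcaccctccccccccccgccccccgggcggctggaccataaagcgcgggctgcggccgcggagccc
The Thbs4 window held 1 E-box, which begins 115 bases before the start, and those of Tnmd and Postn held 0. The Postn window shown held 1 TATA box, which begins 26 bases before the start, and a second RefSeq window of Postn further upstream held 0 E-boxes and 0 TATA boxes. Of 32851 mouse promoter windows of the same length, 66.2% held an E-box and 12.4% a TATA box. The palindromic estrogen response element (GGTCA, then NNN, then TGACC) was matched in 0 of these windows and in 0.0639% of all windows. A match is a stretch of letters and not a shown binding site, and no match says only that these letters are not in these windows.

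Libraries held 11.9 to 35.4 M estimated counts. The 7 genes had between 62 and 4615 counts per library, so each was measured in all 14 libraries. Levels are given as CPM, the count of a gene scaled to a common library total, after TMM scaling, which corrects for library size and for a few genes that take up much of a library. OVX-PBS replicate 1 and OVX-HA replicate 2 stood apart from the rest: 11 genes of the central nervous system summed to 520.4 and 456.4 CPM there, against 1969 to 5553 CPM in the other 12 libraries.

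**Figure D1:**
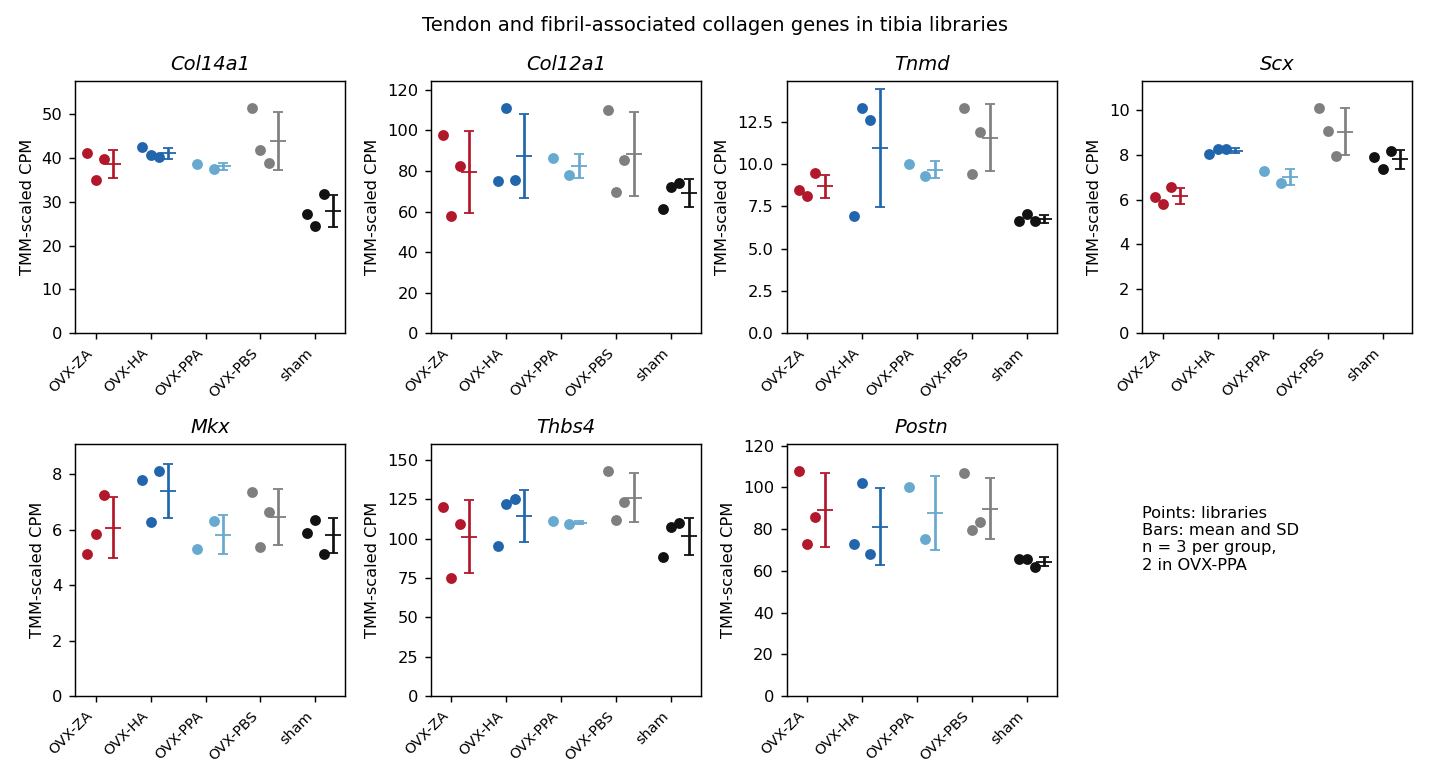
Level of each gene (TMM-scaled CPM, vertical axis from 0) in every library, by group; points are libraries and bars give the group mean and SD. All 11 OVX libraries lie above the 3 sham libraries for Col14a1 (34.98 CPM and up, against at most 31.76 CPM) and for Postn, while Scx is lowest in the 3 OVX-ZA libraries.

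Levels were also divided by the exon length of each gene, merged over all its annotated transcripts. That length can exceed the expressed transcript, so genes are compared only roughly. On this scale Thbs4 had the highest level of the 7, at 33.62 ± 5.092 CPM per kb (SD over the 14 libraries). Postn followed at 9.431 ± 1.853 and Tnmd at 7.031 ± 1.794 CPM per kb. Col14a1 at 5.397 ± 0.9546 and Col12a1 at 5.334 ± 1.058 CPM per kb, the 2 FACIT collagens, did not differ beyond their spread on this scale. The transcription factors had the lowest levels, with Scx at 3.83 ± 0.5738 and Mkx at 1.55 ± 0.2415 CPM per kb.

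Col14a1 (ENSMUSG00000022371, mm10 chr15:55307750-55520803, plus strand, protein coding) encodes collagen XIV. It had 41.1, 34.98 and 39.7 CPM in OVX-ZA libraries, 42.4, 40.5 and 40.1 CPM in OVX-HA, 38.6 and 37.5 CPM in OVX-PPA and 51.3, 41.7 and 38.7 CPM in OVX-PBS, against 27.1, 24.5 and 31.8 CPM in sham libraries. Every one of the 11 OVX libraries was above every sham library, whichever agent the mice had received. The group means were 38.61 ± 3.222 CPM in OVX-ZA, 41.0 ± 1.22 CPM in OVX-HA, 38.03 ± 0.777 CPM in OVX-PPA, 43.88 ± 6.581 CPM in OVX-PBS and 27.78 ± 3.671 CPM in sham. The OVX-ZA, OVX-HA and OVX-PPA means lay within 1 SD of the OVX-PBS mean, and the sham mean stood alone below them. The log2 difference of OVX-PBS minus sham was 0.66 ± 0.126 (SE; 95% interval 0.39 to 0.93), a 1.58-fold higher level, and OVX-PBS replicate 1 held the highest value of the series.

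The 8 libraries of the compounds were compared with sham, with equal weight for each of the 3 compound groups. This comparison holds no OVX-PBS library but shares the 3 sham libraries with the comparison the genes were chosen from. Its p-values and intervals for these genes take no account of that choice, so they are not independent support for a difference from sham. In the compounds minus sham Col14a1 was 1.41-fold higher, with a log2 difference of 0.50 ± 0.107 (95% interval 0.26 to 0.73). All 8 compound libraries (34.98 to 42.39 CPM) were above all 3 sham libraries. Col14a1 did not pass in edgeR's quasi-likelihood test (adjusted p = 0.619 after Benjamini-Hochberg over all genes), while DESeq2 on the same counts gave 0.51 with an adjusted p of 0.0378. It was 1 of the 5 genes that DESeq2 called there, 0.023% of those it tested, and edgeR called 0 genes, with 447 at an unadjusted p under 0.05. Against OVX-PBS, the Col14a1 difference was -0.10 in OVX-HA (95% interval -0.37 to 0.17), -0.21 in OVX-PPA (-0.51 to 0.10) and -0.18 in OVX-ZA (-0.46 to 0.09), and the lowest adjusted p from edgeR was 0.899. Without OVX-PBS replicate 1, which had the highest Col14a1 level, the difference was 0.03 for OVX-HA, -0.08 for OVX-PPA and -0.06 for OVX-ZA. The intervals of the fits with all libraries hold both no difference and a level as much as 0.51 lower on the log2 scale. A partial shift towards the sham level was thus neither shown nor excluded with these libraries.

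Col12a1 (ENSMUSG00000032332, mm10 chr9:79598991-79718831, minus strand) encodes collagen XII, the FACIT collagen of tendon sheaths, ligaments and periosteum. Its levels were 97.9, 57.7 and 82.3 CPM in OVX-ZA, 75.3, 111 and 75.7 CPM in OVX-HA, 86.6 and 78.2 CPM in OVX-PPA and 110, 69.4 and 85.5 CPM in OVX-PBS, against 61.1, 71.9 and 74.2 CPM in sham. The groups overlapped, and the 2 highest values were those of OVX-HA replicate 2 and OVX-PBS replicate 1, the libraries that stood apart. OVX-PBS minus sham was 0.35 ± 0.219 (SE, log2), with an interval of -0.12 to 0.83, and the compounds minus sham gave 0.26 ± 0.185 (edgeR adjusted p = 1.0). Of the OVX libraries, 11 of 11 were above every sham library for Col14a1 and 9 of 11 for Col12a1. Col14a1 was chosen because it separated these groups, so nothing is read from the difference between these counts.

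Tnmd (ENSMUSG00000031250, mm10 chrX:133850980-133865577, plus strand) had 8.49, 8.13 and 9.45 CPM in OVX-ZA, 6.92, 13.3 and 12.6 CPM in OVX-HA, 10.04 and 9.30 CPM in OVX-PPA and 13.3, 9.41 and 11.9 CPM in OVX-PBS, against 6.64, 7.04 and 6.63 CPM in sham. Only OVX-HA replicate 1 among the 11 OVX libraries reached down into the narrow range of sham. OVX-PBS minus sham was 0.77 ± 0.216 (SE, log2; 95% interval 0.30 to 1.24), or 1.70-fold, which is the highest of the 7 genes in that comparison. The compounds minus sham gave 0.52 ± 0.184 (95% interval 0.12 to 0.92; edgeR unadjusted p = 0.0151, adjusted p = 1.0), with 7 of 8 compound libraries above every sham library. OVX-ZA minus OVX-PBS was -0.41 ± 0.216 (-0.88 to 0.06; edgeR adjusted p = 0.899).

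Scx (ENSMUSG00000034161, mm10 chr15:76457452-76459458, plus strand) did not follow Tnmd. It had 6.10, 5.81 and 6.56 CPM in OVX-ZA, 8.05, 8.28 and 8.26 CPM in OVX-HA, 7.27 and 6.74 CPM in OVX-PPA and 10.1, 9.08 and 7.97 CPM in OVX-PBS, against 7.90, 7.35 and 8.18 CPM in sham. The 3 OVX-ZA libraries were the lowest of the 14 and overlapped with no other group. OVX-ZA minus OVX-PBS was -0.55 ± 0.124 (SE, log2; 95% interval -0.82 to -0.28), or 0.683-fold, with an unadjusted p of 0.000797 and an adjusted p of 0.559 by edgeR and 0.152 by DESeq2. Neither adjusted p passed the FDR threshold of 0.05. OVX-ZA minus the mean of OVX-HA and OVX-PPA, which shares no control library with the comparison the genes were chosen from, was -0.30 ± 0.113 (-0.54 to -0.05; edgeR unadjusted p = 0.0214, adjusted p = 1.0). OVX-ZA minus sham, a comparison added after the values were seen, was -0.34 ± 0.124 (edgeR adjusted p = 1.0).

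Scx lay also below OVX-PBS in OVX-PPA, by a log2 difference of -0.37 ± 0.138 (edgeR unadjusted p = 0.0214, adjusted p = 1.0). OVX-PBS minus sham was 0.21 ± 0.122, and those groups overlapped. The short Scx gene lies inside an intron of Bop1, a ribosome biogenesis gene on the opposite strand, and whether the authors' counting used strand is not given. Bop1 averaged 27.25 ± 1.948 CPM in OVX-ZA, 26.35 ± 0.83 CPM in OVX-HA, 23.63 ± 2.259 CPM in OVX-PPA, 27.96 ± 0.91 CPM in OVX-PBS and 28.16 ± 1.147 CPM in sham. Its OVX-ZA mean was within 1 SD of its OVX-PBS and sham means, and its lowest mean was that of OVX-PPA. Whether Bop1 reads entered the Scx counts was not tested, and these levels do not show it.

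Mkx (ENSMUSG00000061013, chromosome 18) is the homeobox factor that maintains collagen production in mouse tendon. It had 5.11, 5.85 and 7.26 CPM in OVX-ZA, 7.80, 6.29 and 8.13 CPM in OVX-HA, 5.32 and 6.32 CPM in OVX-PPA and 7.38, 5.39 and 6.64 CPM in OVX-PBS, against 5.90, 6.37 and 5.12 CPM in sham. The groups overlapped, and OVX-HA averaged the highest, at 7.41 ± 0.979 CPM. Mkx shares exon sequence on the same strand with AC148004.2, which is not among the symbols of the count table, so the reads counted for Mkx are uncertain. OVX-PBS minus sham was 0.15 ± 0.180 (SE, log2), and the compounds minus sham gave 0.14 ± 0.151 (edgeR adjusted p = 1.0).

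Thbs4 (ENSMUSG00000021702, mm10 chr13:92751590-92794818, minus strand) had 120, 75.1 and 109 CPM in OVX-ZA, 95.4, 122 and 125 CPM in OVX-HA, 111 and 109 CPM in OVX-PPA and 143, 112 and 123 CPM in OVX-PBS, against 88.0, 107 and 110 CPM in sham. The lowest OVX-PBS library, at 111.9 CPM, was just above the highest sham library, at 109.5 CPM, while the compound libraries spread below, over and above the sham range. OVX-PBS minus sham was 0.31 ± 0.173 (SE, log2), the compounds minus sham 0.09 ± 0.145 (edgeR adjusted p = 1.0) and OVX-ZA minus OVX-PBS -0.32 ± 0.174 (edgeR adjusted p = 0.899).

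Postn (ENSMUSG00000027750, mm10 chr3:54361109-54391037, plus strand) separated OVX from sham libraries as Col14a1 did. Its levels were 108, 73.1 and 86.0 CPM in OVX-ZA, 73.1, 102 and 68.2 CPM in OVX-HA, 100 and 75.2 CPM in OVX-PPA and 107, 79.5 and 83.3 CPM in OVX-PBS, against 65.9, 65.5 and 62.0 CPM in sham. All 11 OVX libraries were above every sham library, but the spread in each OVX group was wide and the lowest OVX library, at 68.18 CPM, was close to the highest sham library, at 65.92 CPM. OVX-PBS minus sham was 0.48 ± 0.189 (SE, log2; 95% interval 0.07 to 0.89), or 1.39-fold. The compounds minus sham gave 0.41 ± 0.161 (0.06 to 0.76; edgeR unadjusted p = 0.0243, adjusted p = 1.0), and OVX-ZA minus OVX-PBS was -0.01 ± 0.189.

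**Figure D2:**
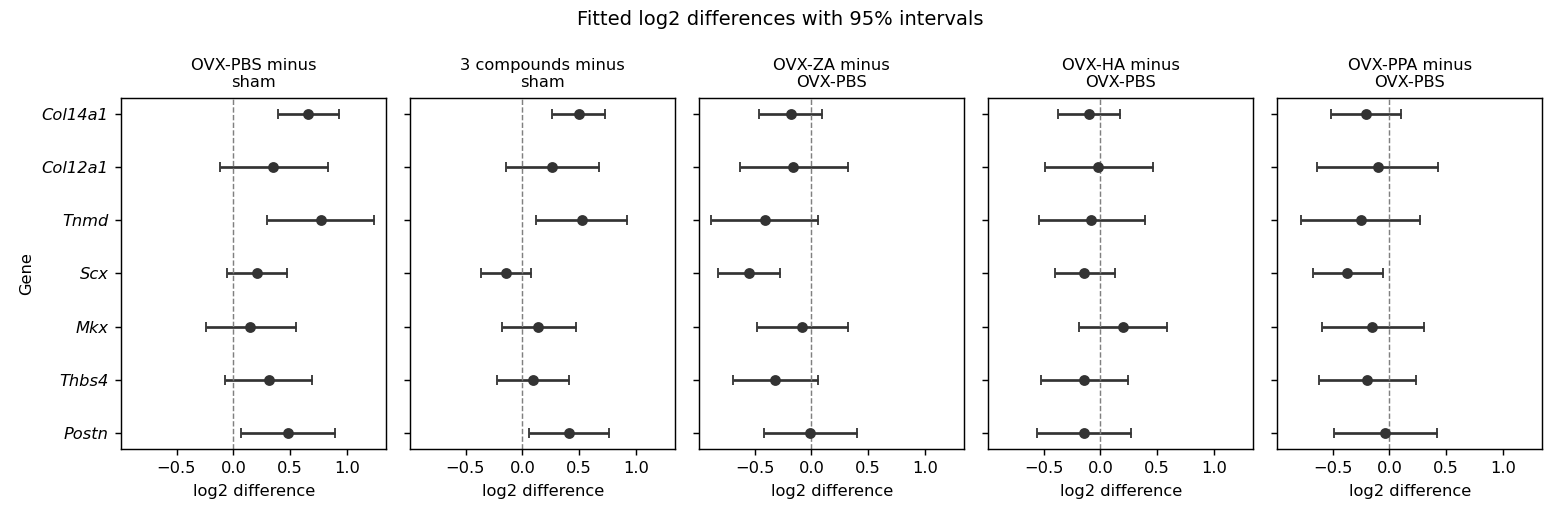
Fitted log2 differences (horizontal axis) of the 7 genes with 95% intervals in 5 comparisons; the dashed line marks no difference. OVX-PBS minus sham is a description, and its intervals take no account of how the genes were chosen. The compounds minus sham share its 3 sham libraries, and Col14a1 is at 0.66 and 0.50 in these comparisons. In OVX-ZA minus OVX-PBS the Scx interval runs from -0.82 to -0.28, and none of the 7 genes passed edgeR's adjustment.

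Set against all genes, edgeR called 0 of the 7 genes in any comparison; it called 0% of all genes in each comparison apart from OVX-ZA minus the mean of OVX-HA and OVX-PPA, where 0.00919% passed. In OVX-PBS minus sham the median difference of the 7 genes was 0.35, beside 0.01 over all genes tested, and 4 of 7 had no overlap between the groups and were higher in OVX-PBS, as were 4.03% of all genes; nothing is read from these because this contrast chose the genes. In the compounds minus sham the median was 0.26, beside -0.02, and 2 of 7 (Col14a1 and Postn) were higher with no overlap, as were 0.294% of all genes. In OVX-PPA minus OVX-PBS, 3 of 7 (Col14a1, Scx and Thbs4) were lower with no overlap, as were 8.77% of all genes, with a median of -0.20, beside -0.02. In OVX-ZA minus OVX-PBS all 7 differences were below 0, 1 of 7 (Scx) was lower with no overlap, as were 9.96% of all genes, and the median was -0.18, beside -0.04. That median ranged from -0.34 (without OVX-ZA replicate 1) to -0.06 (without OVX-PBS replicate 1) over single left-out libraries, and Postn was at 0.04 with RLE factors, DESeq2 or no low-count filter. In OVX-HA minus OVX-PBS none of the 7 separated (2.24% of all genes were higher and 1.83% lower with no overlap), and the median was -0.10, beside 0.01. In OVX-ZA minus the mean of OVX-HA and OVX-PPA, Scx was again the 1 gene lower with no overlap, as were 2.39% of all genes. In OVX-HA minus OVX-PPA, 2 of 7 (Col14a1 and Scx) were higher with no overlap, as were 6.64% of all genes. In OVX-ZA minus sham, 3 of 7 (Col14a1, Tnmd and Postn) were higher with no overlap, as were 3.46% of all genes, and Scx was lower, as were 5.17%. All of these except OVX-ZA minus the mean of OVX-HA and OVX-PPA and OVX-HA minus OVX-PPA share OVX-PBS or sham libraries with the comparison that chose the genes.

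Because Scx and Col14a1 differed in which group stood apart, their ratio within each library was taken after the values had been seen, and it is a description. Scx over Col14a1 was 0.148, 0.166 and 0.165 in OVX-ZA libraries, 0.190, 0.204 and 0.206 in OVX-HA, 0.188 and 0.180 in OVX-PPA and 0.196, 0.218 and 0.206 in OVX-PBS, against 0.292, 0.300 and 0.258 in sham. The libraries fell into 3 ranges with no overlap: OVX-ZA lowest, the other 3 OVX groups between, and sham highest. Col14a1 was chosen for its difference from sham, and Scx was taken after it was seen lowest in OVX-ZA. Nothing is therefore read from the order of these ranges. A ratio within a library does not depend on library scaling, and it shows unequal levels of the 2 genes without saying which of them differs. Tnmd over Scx averaged 1.41 ± 0.0259 in OVX-ZA, 1.33 ± 0.408 in OVX-HA and 1.38 in OVX-PPA (n = 2), with 1.29 ± 0.232 in OVX-PBS and 0.870 ± 0.0778 in sham (SD, n = 3 apart from OVX-PPA). OVX-HA replicate 1, at 0.861, lay within the sham range of 0.811 to 0.958.

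**Figure D3:**
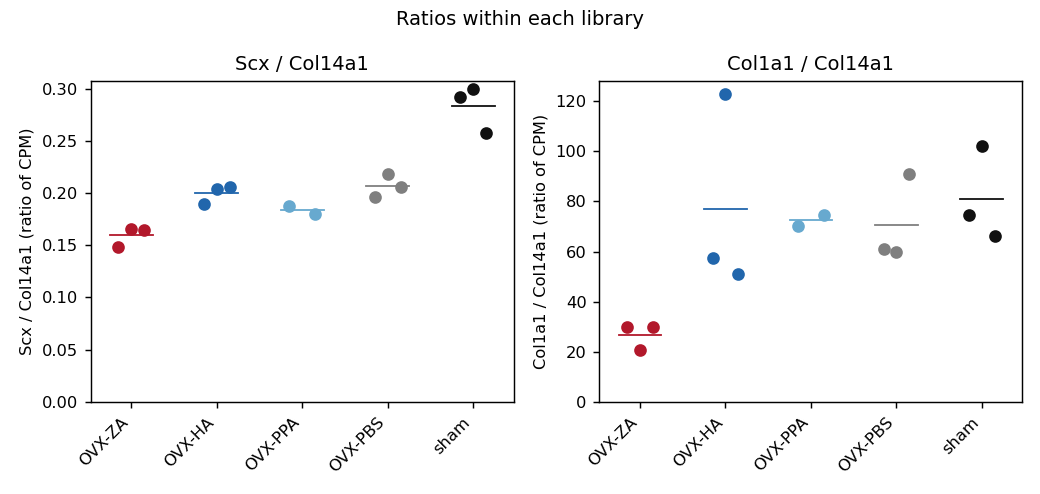
Ratio of CPM within each library for Scx over Col14a1 (left) and Col1a1 over Col14a1 (right), by group; points are libraries, short lines are group means and both vertical axes start at 0. Scx over Col14a1 is at most 0.166 in OVX-ZA and at least 0.258 in sham, and Col1a1 over Col14a1 is at most 30.0 in OVX-ZA and at least 51.0 in all other groups.

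The collagens that the FACIT collagens bind were also mostly lower in OVX-ZA than in OVX-PBS, and a difference between them and the 7 genes was not tested. Among 11 fibrillar collagens and other fibril partners, 10 were below OVX-PBS in OVX-ZA, with a median of -0.48 beside -0.04 over all genes, and 0 of 11 passed edgeR's adjustment. Col1a1, the main chain of bone and tendon collagen, averaged 1046 ± 279.6 CPM in OVX-ZA and 3044 ± 514.1 CPM in OVX-PBS (log2 difference -1.54 ± 0.319 SE; edgeR adjusted p = 0.447). Col1a2, its partner chain, averaged 1102 ± 211.8 and 3054 ± 493.1 CPM in the same groups (-1.47 ± 0.281; edgeR adjusted p = 0.413). Col5a2, which helps to set fibril width, averaged 84.36 ± 11.94 CPM in OVX-ZA and 139.1 ± 23.02 CPM in OVX-PBS (-0.72 ± 0.172; edgeR adjusted p = 0.722). Col1a1 over Col14a1 was 30.0, 20.7 and 29.8 in OVX-ZA libraries, against 61.0, 59.9 and 90.8 in OVX-PBS libraries and 74.8, 102 and 66.2 in sham libraries. Osteoblasts also make type I collagen, and of 10 genes of osteoblasts and osteocytes, a list that holds Col1a1 too, 7 were below OVX-PBS in OVX-ZA and 3 above. Of the 10, 5 including Col1a1 were lower with no overlap, as were 9.96% of all genes, and 0 passed edgeR's adjustment. Bglap, from this list, averaged 56.66 ± 5.413 CPM in OVX-ZA and 192.8 ± 9.618 CPM in OVX-PBS (log2 difference -1.77 ± 0.303 SE, edgeR adjusted p = 0.286). Without Col1a1, the other 9 summed to 294.2 to 454.1 CPM in OVX-ZA and 450.2 to 599.1 CPM in OVX-PBS, which overlap. Their part in the ratio was not tested.

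Other genes of tendon matrix were counted from a list of 20 that holds none of the 7. In OVX-PBS minus sham 19 of 20 were above 0, with a median of 0.29 beside 0.01 over all genes. Kera, the corneal and tendon proteoglycan keratocan, averaged 11.14 ± 5.04 CPM in OVX-PBS and 4.951 ± 1.068 CPM in sham (log2 difference 1.16 ± 0.312 SE). Aspn, the proteoglycan asporin, averaged 61.79 ± 12.9 CPM in OVX-PBS and 44.44 ± 4.074 CPM in sham (0.47 ± 0.171), and Abi3bp, a secreted matrix protein, averaged 46.2 ± 9.184 and 34.17 ± 4.585 CPM (0.43 ± 0.154). In the compounds minus sham 18 of 20 were above 0, with a median of 0.19 beside -0.02, and 0 of 20 passed edgeR's adjustment. Kera was 0.90 ± 0.27 there, with 9.099 ± 1.909 CPM in the compound libraries and 4.951 ± 1.068 CPM in sham and no overlap between them (edgeR unadjusted p = 0.00602, adjusted p = 1.0). In OVX-ZA minus OVX-PBS 17 of 20 were below 0, with a median of -0.16 beside -0.04.

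The remaining FACIT collagens and the regulators were counted in the same comparisons with sham. Of 8 further FACIT collagens 7 were tested, and in OVX-PBS minus sham 5 of 7 were above 0, with a median of 0.41. Col9a1, a cartilage collagen, had the highest difference of these, 1.49 ± 0.569 (SE, log2), with 8.04 ± 5.389 CPM in OVX-PBS and 2.84 ± 1.128 CPM in sham. Col16a1 averaged 47.44 ± 11.07 CPM in OVX-PBS and 35.68 ± 1.70 CPM in sham (0.41 ± 0.166). In the compounds minus sham 6 of the 7 further FACIT collagens tested were above 0, with a median of 0.27. Of 16 regulators of tendon cells, which include TGF-β ligands and receptors and the Egr factors, 13 were above 0 in OVX-PBS minus sham with a median of 0.14, and 9 of 16 were above 0 in the compounds minus sham with a median of 0.01. Of 14 partners of periostin and thrombospondins, such as the cross-linking enzymes and the integrin chains, 12 and 11 were above 0 in these 2 comparisons, with medians of 0.23 and 0.09. None of these genes passed edgeR's adjustment.

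Among themselves the 7 genes did not vary as 1 group over the 12 libraries other than the 2 that stood apart. There Pearson's r of log2 CPM ranged from -0.41 to 0.78 over 21 pairs, was over 0.5 in 5 pairs and below 0 in 5. With all 14 libraries it ranged from -0.08 to 0.82, so the low values depended on which libraries were taken. Over the 12 libraries Col12a1 went with Thbs4 (0.78) and Postn (0.72), and Col14a1 with Tnmd and Postn (0.59 each). Scx was at -0.01 with Col14a1, 0.06 with Tnmd, 0.35 with Thbs4 and -0.41 with Postn. With all 14 libraries Scx was at 0.28 with Col14a1, 0.35 with Tnmd and 0.55 with Thbs4. Scx and Col14a1 thus ordered the 12 libraries differently. These are descriptions over libraries that share group differences, and no test is attached.

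**Figure D4:**
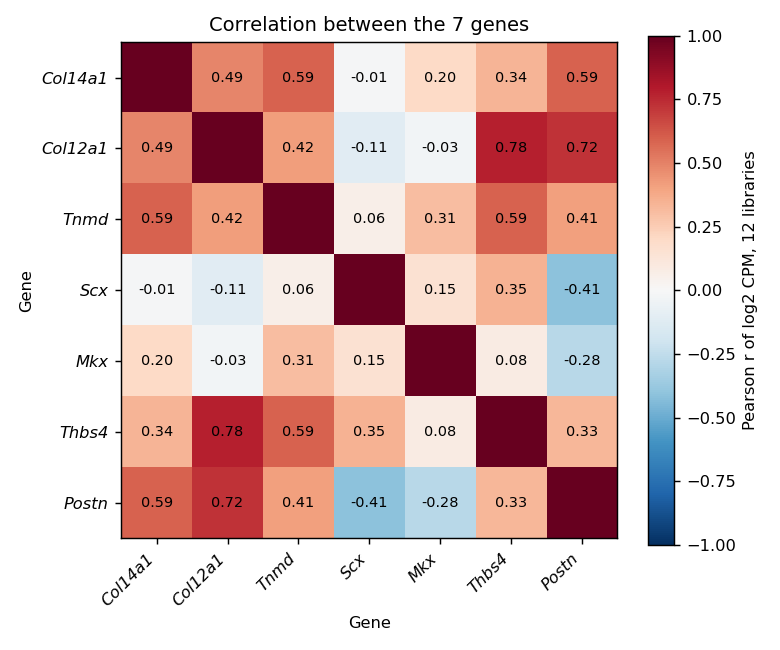
Pearson's r of log2 CPM between each pair of the 7 genes over 12 libraries (rows and columns are genes, colour runs from -1 to 1). Col12a1 with Thbs4 has the highest value, 0.78, and Scx with Postn the lowest, -0.41.

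Of 14092 genes at 2 CPM or more on average, the 8 most like Col14a1 over the 12 libraries were Hccs (Pearson's r = 0.92), Col15a1 (0.92), Nid1 (0.90), Emp1 (0.89), Abi3bp (0.88), Col3a1 (0.88), Angptl2 (0.86) and Aplnr (0.86). Col15a1 and Nid1 encode proteins of the basement membrane zone, and Col3a1 encodes the fibrillar collagen of loose connective tissue. Hccs attaches heme to cytochrome c. With all 14 libraries Pearson's r was 0.93 for Col15a1, 0.91 for Col3a1 and 0.75 for Nid1. The 12 libraries include the sham and OVX groups, so any gene that differs between them ranks high.

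Other tissue in the samples moved with Col14a1 to some degree. Over the 12 libraries its log2 CPM had an r of 0.78 with the mean of 13 fibroblast genes of fascia and adventitia, 0.58 with 16 skeletal muscle genes and 0.51 with cartilage genes. Over all 14 libraries these values were 0.61, 0.57 and 0.62. Both sets of libraries span the sham and OVX groups. All 16 muscle genes were above 0 in OVX-PBS minus sham, with a median of 0.34, and their summed level was 57060 to 90860 CPM in OVX-PBS and 41280 to 84160 CPM in sham. OVX-PBS replicate 1 had the highest muscle sum (90860 CPM) and the highest Col14a1 level (51.3 CPM), and sham replicate 2 the lowest of both (41280 and 24.5 CPM). OVX-PBS replicate 2 had 84770 muscle CPM and 41.7 CPM of Col14a1, and sham replicate 3 had 84160 and 31.8 CPM. The part of muscle in the Col14a1 difference was not tested.

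**Figure D5:**
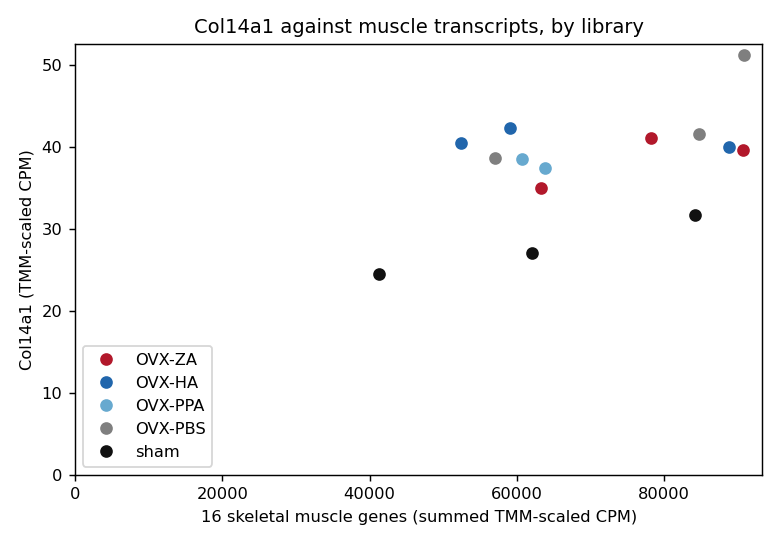
Col14a1 (TMM-scaled CPM, vertical axis) against the summed level of 16 skeletal muscle genes (TMM-scaled CPM, horizontal axis) in each library, coloured by group; both axes start at 0. The highest point on both axes is OVX-PBS replicate 1 (90860 and 51.3 CPM) and the lowest is sham replicate 2 (41280 and 24.5 CPM).

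The 13 fascia genes summed to 1172 to 1492 CPM in OVX-PBS and 1044 to 1398 CPM in sham; 12 of 13 were above 0 in OVX-PBS minus sham, with a median of 0.23, and 9 of 13 were above 0 in the compounds minus sham, with a median of 0.08. The 10 tested cartilage genes of 11 summed to 247.3 to 573.5 CPM in OVX-PBS and 151.5 to 281.7 CPM in sham, and all 10 were above 0 in the compounds minus sham, with a median of 0.65. All 11 nervous system genes were below 0 in OVX-PBS minus sham, with a median of -0.91. The 6 lymph node genes summed to 122.3 CPM in OVX-ZA replicate 2, 59.37 CPM in OVX-ZA replicate 1 and 108.2 CPM in sham replicate 3. The other 11 libraries were all lower, and the lowest had 17.29 CPM. All 6 were below 0 in OVX-PBS minus sham and in the compounds minus sham, with medians of -0.68 and -1.41. The part of these tissues in the Col14a1, Tnmd and Postn differences was not tested. Without both libraries that stood apart, OVX-PBS minus sham was 0.55 for Col14a1, 0.68 for Tnmd and 0.36 for Postn on the log2 scale.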

How the data were processed

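Tibia RNA was sequenced in 14 libraries of 5 groups, mapped by the treatment given in the labels. The libraries were stranded poly(A) libraries with single reads of 75 nt, per the labels' protocols. Build mm10, STAR 2.7.8a, Bowtie2 2.2.5, CASAVA 1.8.1 and Partek are named in the submitters' processing notes. The counting tool, its use of strand and the annotation were not given in the sources used here. The authors deposited a table of estimated counts per gene symbol, not normalized, of which 20.7% of values depart from a whole number by more than 0.01. They also deposited a log2 table, which holds the same counts as log2 values (1e-04 added, then shifted by a constant for each library; largest departure 0.0055).

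Counts were rounded, filtered by group with edgeR (21761 genes kept) and scaled by TMM. The quasi-likelihood fit used edgeR 4.0.16 in R 4.3.3, with 14 libraries, 5 group means and 9 residual degrees of freedom; p-values are two-sided and adjusted by Benjamini-Hochberg over all genes tested, at an FDR of 0.05. Alternatives were DESeq2 1.42.0, RLE factors, no filter, a replicate block, the compared groups alone, limma 3.58.1 on the log2 table, and fits without 1 or 2 libraries. The script was tested on simulated counts with known changes. No 2 libraries of a group agreed within sampling noise.

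The 7 genes and the gene lists were chosen with earlier results of these data known. All 7 genes are named; from each list the text takes genes among the 3 with the smallest unadjusted p. Genes like Col14a1 are the 8 with the highest Pearson's r over 12 libraries among genes at 2 CPM or more. Symbols were looked up in an mm10 annotation (53292 of 55291 found, 96.4%).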

Additional observations from a re-analysis of the deposited data

How the results depend on the processing

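Among the tested comparisons of the 7 genes, 1 passed under any setting tried. Col14a1 in the compounds minus sham passed in DESeq2 (0.51, adjusted p = 0.0378), while under the other settings its adjusted p was 0.272 to 1.0. That comparison shares its sham libraries with the one the genes were chosen from, so this p is not independent of the choice. Over single left-out libraries the Col14a1 difference was 0.53 to 0.77 in OVX-PBS minus sham and 0.42 to 0.60 in the compounds minus sham, and the Scx difference was -0.60 to -0.47 in OVX-ZA minus OVX-PBS. Genes called by DESeq2 numbered 1 in OVX-PBS minus sham, 32 in OVX-ZA minus OVX-PBS, 48 in OVX-ZA minus the mean of OVX-HA and OVX-PPA, 5 in the compounds minus sham and 15 in OVX-ZA minus sham, against 0, 0, 2, 0 and 0 by edgeR. Without the low-count filter edgeR called 3 in OVX-ZA minus OVX-PBS, 11 in OVX-ZA minus the mean of OVX-HA and OVX-PPA and 2 in OVX-ZA minus sham; with the compared groups alone 1 in OVX-ZA minus OVX-PBS and 0 in OVX-ZA minus the mean of OVX-HA and OVX-PPA; and without both OVX-PBS replicate 1 and OVX-HA replicate 2, 6, 13 and 2 in the same 3 comparisons. limma called 1 in OVX-PPA minus OVX-PBS, 4 in OVX-ZA minus the mean of OVX-HA and OVX-PPA and 1 in OVX-HA minus OVX-PPA. Leaving out 1 library gave 0 to 1 called in OVX-ZA minus OVX-PBS (1 without OVX-ZA replicate 2), 0 to 17 in OVX-ZA minus the mean of OVX-HA and OVX-PPA (17 when OVX-HA replicate 2 was left out, 4 when replicate 3 of that group was) and 0 to 1 in the compounds minus sham (1 without sham replicate 2). The causes were not tested.

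Differences near 0 changed sign. Without OVX-PBS replicate 1 and OVX-HA replicate 2 they were 0.01 for Col14a1 in OVX-HA minus OVX-PBS, 0.09 for Col12a1 and 0.11 for Postn in OVX-PPA minus OVX-PBS, 0.05 for Col12a1, 0.04 for Mkx and 0.15 for Postn in OVX-ZA minus OVX-PBS, 0.04 for Col12a1 in OVX-ZA minus the mean of OVX-HA and OVX-PPA, and -0.16 for Col12a1, -0.03 for Tnmd and -0.03 for Thbs4 in OVX-HA minus OVX-PPA. Col12a1 in OVX-HA minus OVX-PBS was 0.01 with RLE factors, DESeq2 or the compared groups alone and 0.06 with limma; Postn in OVX-ZA minus OVX-PBS was 0.04 with RLE factors, DESeq2, no filter or the compared groups alone. Over single left-out libraries the ranges were, in OVX-HA minus OVX-PBS, -0.15 to 0.03 for Col14a1, -0.23 to 0.17 for Col12a1 and -0.25 to 0.16 for Tnmd; in OVX-PPA minus OVX-PBS, -0.25 to 0.09 for Col12a1 and -0.25 to 0.17 for Postn; in OVX-ZA minus OVX-PBS, -0.34 to 0.03 for Col12a1, -0.23 to 0.02 for Mkx and -0.17 to 0.13 for Postn; in OVX-ZA minus the mean of OVX-HA and OVX-PPA, -0.08 to 0.03 for Col14a1, -0.28 to 0.09 for Col12a1, -0.26 to 0.01 for Mkx, -0.29 to 0.03 for Thbs4 and -0.08 to 0.22 for Postn; and in OVX-HA minus OVX-PPA, -0.17 to 0.18 for Col12a1, -0.03 to 0.39 for Tnmd, -0.03 to 0.14 for Thbs4 and -0.35 to 0.11 for Postn.

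Over single left-out libraries the median of the 7 genes was 0.21 to 0.50 in OVX-PBS minus sham, 0.18 to 0.33 in the compounds minus sham, -0.20 to 0.03 in OVX-HA minus OVX-PBS and -0.26 to -0.08 in OVX-PPA minus OVX-PBS. Replicate numbers did not pair the libraries: the correlation of same-numbered libraries ran from -0.554 to 0.425, was over 0.1 in 8 of 26 pairs, and 3 of 14 libraries correlated best with their own number. With a replicate block, 0 genes were called in OVX-ZA minus the mean of OVX-HA and OVX-PPA (2 without it), Col14a1 was 0.66 in OVX-PBS minus sham and 0.50 in the compounds minus sham, and Col12a1 in OVX-HA minus OVX-PBS was 0.0044; the block changed no other call.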

Other observations

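Values of Col22a1, Itgav and Tgfbr1, list genes chosen after their values were seen, are given for OVX-ZA and OVX-PBS; none of them passed edgeR's adjustment. Col22a1, a FACIT collagen of the junction between muscle and tendon, averaged 44.57 ± 5.599 CPM in OVX-ZA and 59.6 ± 2.379 CPM in OVX-PBS (log2 difference -0.42 ± 0.153 SE; edgeR adjusted p = 0.899). Itgav, the integrin αV chain that binds periostin, averaged 65.92 ± 4.823 CPM in OVX-ZA and 44.93 ± 2.294 CPM in OVX-PBS (0.55 ± 0.124; edgeR adjusted p = 0.559), the opposite direction to Scx. Osteoclasts also express Itgav, and 8 osteoclast genes summed to 1212 to 2267 CPM in OVX-ZA and 666 to 811 CPM in OVX-PBS. The part of osteoclasts in the Itgav difference was not tested. Tgfbr1, the type I receptor of TGF-β, averaged 57.52 ± 7.743 CPM in OVX-ZA and 42.47 ± 0.602 CPM in OVX-PBS (0.44 ± 0.122; edgeR adjusted p = 0.899).

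Over the 12 libraries Scx had an r of -0.82 with the mean of the 8 osteoclast genes, and -0.71 over all 14, as a description over libraries in which OVX-ZA holds the lowest Scx and the highest osteoclast levels. Postn had an r of 0.54 with the same genes and 0.75 with the cartilage genes. The genes most like Scx were Leng9 (0.92), Safb (0.90), Irf2bp1 (0.89) and Notch4 (0.89), and none of the 8 most like Scx or Tnmd was among the 7 genes or the tendon lists.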
